A study of Homo sapiens with 6 samples.

Results

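The genes described here work in the endoplasmic reticulum (ER): they fold newly made secretory and membrane proteins, sense a build-up of misfolded ones, or hand failed ones over for degradation. They were looked up by name, with older or newer symbols allowed, and the rule uses no expression value. Of 33 names 32 were found among the 17990 genes of the deposited table, and all 32 passed the minimum of a mean count of 20, which 11916 genes in all passed. P4HB, a protein disulfide isomerase, was not analysed here. ERO1L and ERO1LB are the table's symbols for the genes now called ERO1A and ERO1B.

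RNA was sequenced from LNCaP, an established human prostate cancer line that responds to androgens, in a time course with 10 nM dihydrotestosterone (DHT), the potent natural androgen. There was 1 library of non-treated cells at 0 h, and 1 library of DHT-treated cells at 3 h, 6 h, 12 h, 24 h and 48 h. All cells, the non-treated ones included, had first been held for days in medium without phenol red and with charcoal-treated serum, so the 0 h library shows 1 cell line after hormone depletion. No non-treated library of a later time was used, so hours in culture and hours with hormone cannot be told apart.

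The ER lumen holds chaperones such as BiP (HSPA5), an Hsp70 whose binding to clients is steered by J-domain cofactors, and disulfide isomerases that are re-oxidised by ERO1 enzymes. When unfolded proteins accumulate, the membrane sensors IRE1 (ERN1), PERK (EIF2AK3) and ATF6 signal the unfolded protein response: IRE1 splices the XBP1 messenger, PERK slows translation, and ATF6 is cut into a transcription factor. Proteins that cannot be folded are trimmed by EDEM mannosidases, moved out of the ER through complexes with the ubiquitin ligase SYVN1 and the derlins, and extracted by VCP for the proteasome. Prostate epithelium is a secretory tissue, and LNCaP cells secrete large amounts of the androgen-regulated protease KLK3 (prostate-specific antigen).

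The libraries held 13179917 to 20587956 counts, the deepest at 24 h, and 15079 to 15589 genes had a read. A level is given in CPM, the count divided by the library's total over the listed transcripts and put on a common scale, and a count of 0 would allow up to 3 counts, or 0.146 to 0.228 CPM. A change is log2((CPM + 1) at a time over (CPM + 1) at 0 h), and a gene is called higher or lower past a fixed size of 2-fold on that scale. With 1 library per group there was no spread between replicates, no test and no p-value; intervals are exact, at 95%, and cover counting error only. FKBP5, an androgen-induced gene that checks the treatment, had 59.0, 152, 748, 1588, 2286 and 2050.4 CPM from 0 h to 48 h, TMPRSS2 had 404, 1747, 2873, 3767, 4479 and 4554 CPM, and KLK3 had 4727, 4566, 6232, 7116, 10012 and 11950 CPM. The LNCaP markers KLK3, KLK2, TMPRSS2, FKBP5 and FOLH1 were detected in every library, whereas the leukocyte list summed to 0.194 to 0.660 CPM and the basal epithelial list to 0.332 to 0.895 CPM. The 5 fibroblast genes summed to 32.1 to 70.0 CPM, nearly all of it COL1A1, with COL1A2 at 0 or 1 count. Fewer cells of a kind and less RNA per cell cannot be told apart in such bulk libraries. The change of a gene also moved with the GC content of its transcript over all tested genes, with Pearson's r of 0.231 at 3 h, -0.739 at 6 h, -0.515 at 24 h and -0.558 at 48 h over 11139 genes and -0.616 at 12 h over 10598. For the 32 genes, 2-fold calls that end with that trend removed are named below. At 12 h genes on chromosome 4 and distal chromosome 15 were not used, and none of the 32 genes lies there.

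Most ER folding and degradation genes stood above their 0 h levels from 12 h on, and none was called lower at any time. At 12, 24 and 48 h alike 31 of 32 were above 0 h (background 38.7%), the exception being CALR at 48 h. With the GC trend removed 28 of 31 were above 0 h at 12 h, 29 at 24 h and 26 at 48 h. Of all tested genes with a known GC value, 5334 of 10598, 5619 of 11139 and 5496 of 11139 were above 0 h on that scale. At 24 h, 32 of 32 were above 0 h, where 45.7% of all tested genes were; 12 of 32 were at least 2-fold higher (37.5%, background 10.5%) and 0 were at least 2-fold lower (background 10.8%). Their median change was 0.92 on the log2 scale, against -0.085 over all tested genes. The increases ran from 18.2-fold for DNAJB9, a J-domain cofactor of BiP, to 1.16-fold for CALR, the lectin chaperone calreticulin. The summed level of the 32 genes was 9410.5, 10209, 11082, 14993, 15623 and 12092 CPM from 0 h to 48 h.

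**Figure D1:**
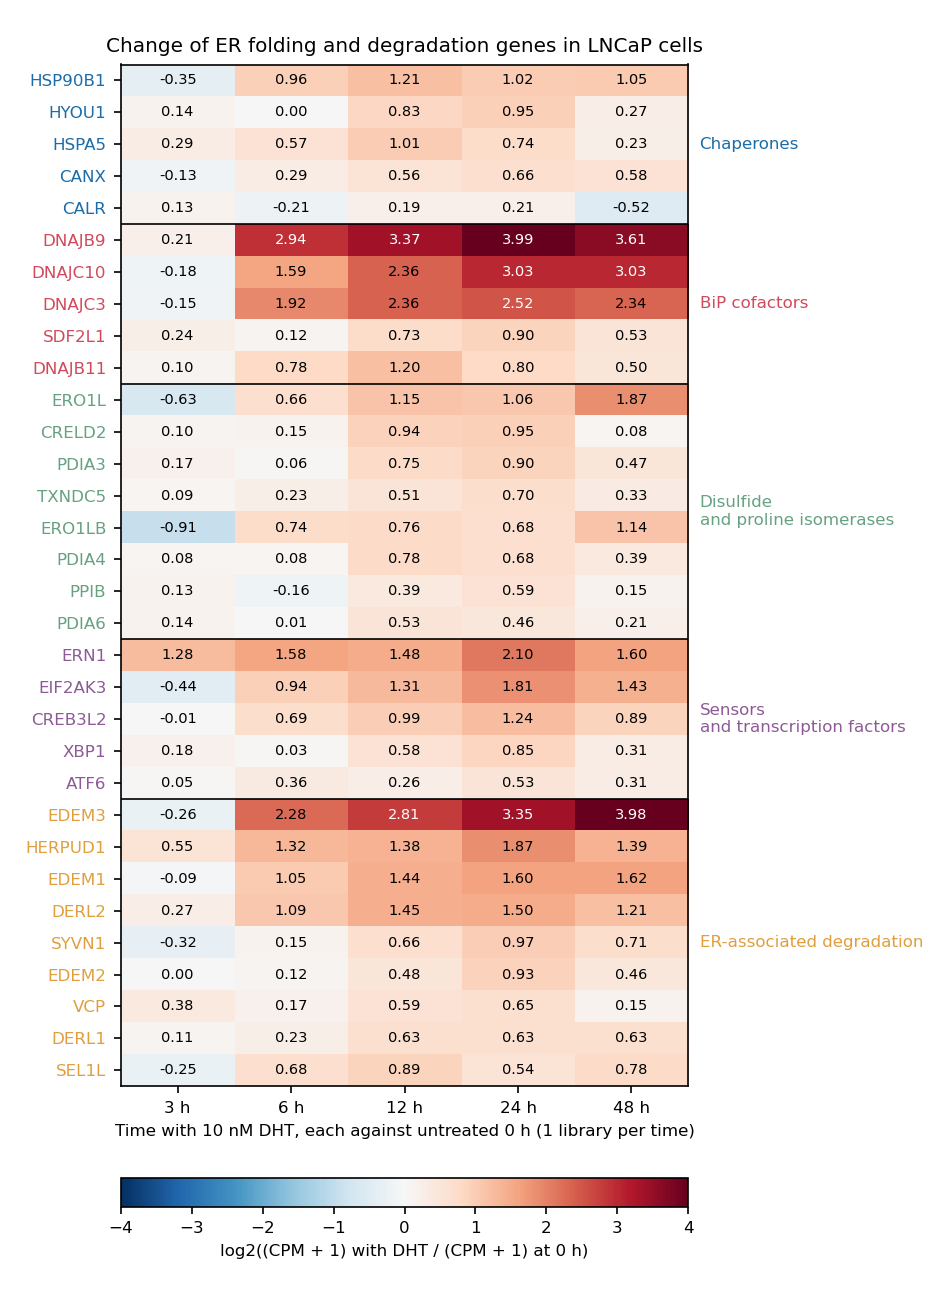
Change of each of the 32 genes (rows, grouped by role and ordered by the 24 h value) at 3, 6, 12, 24 and 48 h of DHT, each against 0 h, as log2((CPM + 1) with DHT / (CPM + 1) at 0 h) on a colour scale from -4 to 4. The 3 h column holds 1 value past 1 (ERN1, 1.28), the 24 h column holds positive values only, and CALR at 48 h has -0.52.

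At 3 h the one gene past 2-fold was ERN1, which encodes IRE1. There 1 of 32 genes was called higher (3.12%, background 0.747%) and 0 lower (background 0.864%), with a median of 0.098 against -0.085 over all tested genes. By 6 h 8 of 32 were higher (background 15.3%) and 0 lower (background 3.01%), with medians of 0.46 and 0.081. At 12 h, over genes outside the regions left out, 13 of 32 were higher (background 11.6%) and 0 lower (background 3.86%), with medians of 0.86 and 0.076. At 48 h 12 of 32 were higher (background 15%) and 0 lower (background 7.33%), with medians of 0.61 and -0.062. At a rule of 1.5-fold, 1 gene was higher (background 2.52%) and 2 lower (background 8.13%) at 3 h, 15 higher at 6 h (background 28.5%), 24 at 12 h (background 25.9%), 28 at 24 h (background 21.6%) and 16 at 48 h (background 25.4%). From 6 h on, 0 genes were lower at that rule, against 13.4, 13.4, 24.2 and 22.0% of all tested genes. The 5 comparisons share the 0 h library, so a low or high value there enters all of them.

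The first 2-fold increase came at different times, within roles as well as between them. ERN1 passed it at 3 h. At 6 h followed 3 cofactors of BiP (DNAJB9, DNAJC3 and DNAJC10) and 4 degradation genes (HERPUD1, EDEM1, EDEM3 and DERL2). The chaperones HSPA5 and HSP90B1, the cofactor DNAJB11, the oxidase ERO1L and the sensor EIF2AK3 joined at 12 h, CREB3L2 at 24 h and ERO1LB at 48 h. With the GC trend removed DNAJC10 (0.44), EDEM1 (0.69) and DERL2 (0.14) were not past 2-fold at 6 h. At 12 h HSPA5 (0.76), HSP90B1 (0.68), DNAJB11 (0.98), ERO1L (0.30), EIF2AK3 (0.95) and DERL2 (0.66) were not, whereas HYOU1 (1.02), SDF2L1 (1.21) and CRELD2 (1.29) were. The other 17 genes stayed within 2-fold of 0 h at every time. Higher at 12, 24 and 48 h alike were 11 of 32 genes, against 7.9% of all tested genes outside the regions left out: HSP90B1, DNAJB9, DNAJC3, DNAJC10, ERO1L, ERN1, EIF2AK3, HERPUD1, EDEM1, EDEM3 and DERL2.

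Some of these genes carry, near their start site, the letters of the ER stress response element (ERSE), a motif read by ATF6 and XBP1 together with NF-Y: CCAAT, 9 bases of any kind, then CCACG. RefSeq promoter windows on GRCh38.p14, from 250 bases before to 50 bases after a start site, were searched on both strands, and 30 of the 32 genes had 1 or more windows. The ERSE letters were in the windows of 8 of 30 genes (26.7%), against 25 of 27305 genes with a window (0.0916%) and 16 of 9548 tested genes (0.168%). ERSE-II, which is ATTGG, 1 base of any kind, then CCACG, was in 3 of 30 (10.0%), against 0.0696% of all genes. The list was chosen for ER roles that include stress sensing. Both motifs are named for the ER stress response, so these shares describe the list and test nothing. The stretches below show matches of genes whose levels are described next, those of CANX, PDIA6 and ERO1LB left out for space, with 61 bases each, 5′ to 3′ on the gene's strand, with the matched letters in capitals; a match on the other strand reads as CGTGG and ATTGG for ERSE and as CGTGG and CCAAT for ERSE-II. In the first stretch of HYOU1 the capitals also cover TGACGTGG, the core of the unfolded protein response element (UPRE).
HSPA5 (ERSE, chr9:125241370-125241430, minus strand): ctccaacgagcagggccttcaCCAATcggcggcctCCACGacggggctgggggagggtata
HSP90B1 (ERSE, chr12:103930195-103930255, plus strand): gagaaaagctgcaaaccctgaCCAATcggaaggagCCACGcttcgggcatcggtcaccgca
HSP90B1 (second ERSE, chr12:103930300-103930360, plus strand): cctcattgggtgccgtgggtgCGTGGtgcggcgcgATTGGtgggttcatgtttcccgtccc
CALR (ERSE, chr19:12938363-12938423, plus strand): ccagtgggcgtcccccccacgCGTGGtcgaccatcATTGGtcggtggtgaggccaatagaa
CRELD2 (ERSE, chr22:49918533-49918593, plus strand): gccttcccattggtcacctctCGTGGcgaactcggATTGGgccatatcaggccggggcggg
XBP1 (ERSE, chr22:28800582-28800642, minus strand): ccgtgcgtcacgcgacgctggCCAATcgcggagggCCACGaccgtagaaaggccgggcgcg
HYOU1 (ERSE-II, chr11:119057355-119057415, minus strand): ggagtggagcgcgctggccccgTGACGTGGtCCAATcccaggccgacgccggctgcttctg
HYOU1 (second ERSE-II, chr11:119057249-119057309, minus strand): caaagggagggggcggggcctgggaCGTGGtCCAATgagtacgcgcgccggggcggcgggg
HERPUD1 (ERSE-II, chr16:56932000-56932060, plus strand): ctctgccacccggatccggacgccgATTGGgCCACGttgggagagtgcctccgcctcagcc
SDF2L1 (ERSE-II, chr22:21642089-21642149, plus strand): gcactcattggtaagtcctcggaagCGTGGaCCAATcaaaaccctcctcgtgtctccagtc

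Among the chaperones, HSPA5 and HSP90B1 were called higher at 12 h; with the GC trend removed the one called there was HYOU1. HSPA5, the Hsp70 of the ER lumen, had 749.9, 917, 1113, 1512, 1253 and 878 CPM from 0 h to 48 h. Its level climbed at each step up to 12 h, where it was 2.02 times that at 0 h (1.97 to 2.06), and at 48 h it was 1.17 times that at 0 h (1.14 to 1.2). HSP90B1, the Hsp90 of the ER (GRP94), had 537, 422, 1045, 1243, 1089.8 and 1116 CPM. The 3 h library was the lowest, and the 4 libraries from 6 h on lay close together, at 2.03 times the 0 h level at 24 h (1.98 to 2.08).

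HYOU1, an Hsp70-like exchange factor for BiP, had 577, 634, 577, 1028, 1116 and 695 CPM, a plateau at 12 and 24 h that stayed just under 2-fold (1.93 at 24 h, 1.88 to 1.99). The calnexin gene CANX, the membrane-bound lectin chaperone, had 724, 664, 886, 1067, 1145 and 1084 CPM, with a ratio of 1.58 at 24 h (1.54 to 1.62). CALR had 2547, 2782, 2205, 2903, 2941 and 1780.4 CPM. It was the one gene of the 32 below its 0 h level at 48 h, at 0.699 times that level (0.688 to 0.710), which is within 2-fold. At 24 h 1 of the 5 chaperone genes was called higher (background 10.5%), and their median change was 0.74.

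**Figure D2:**
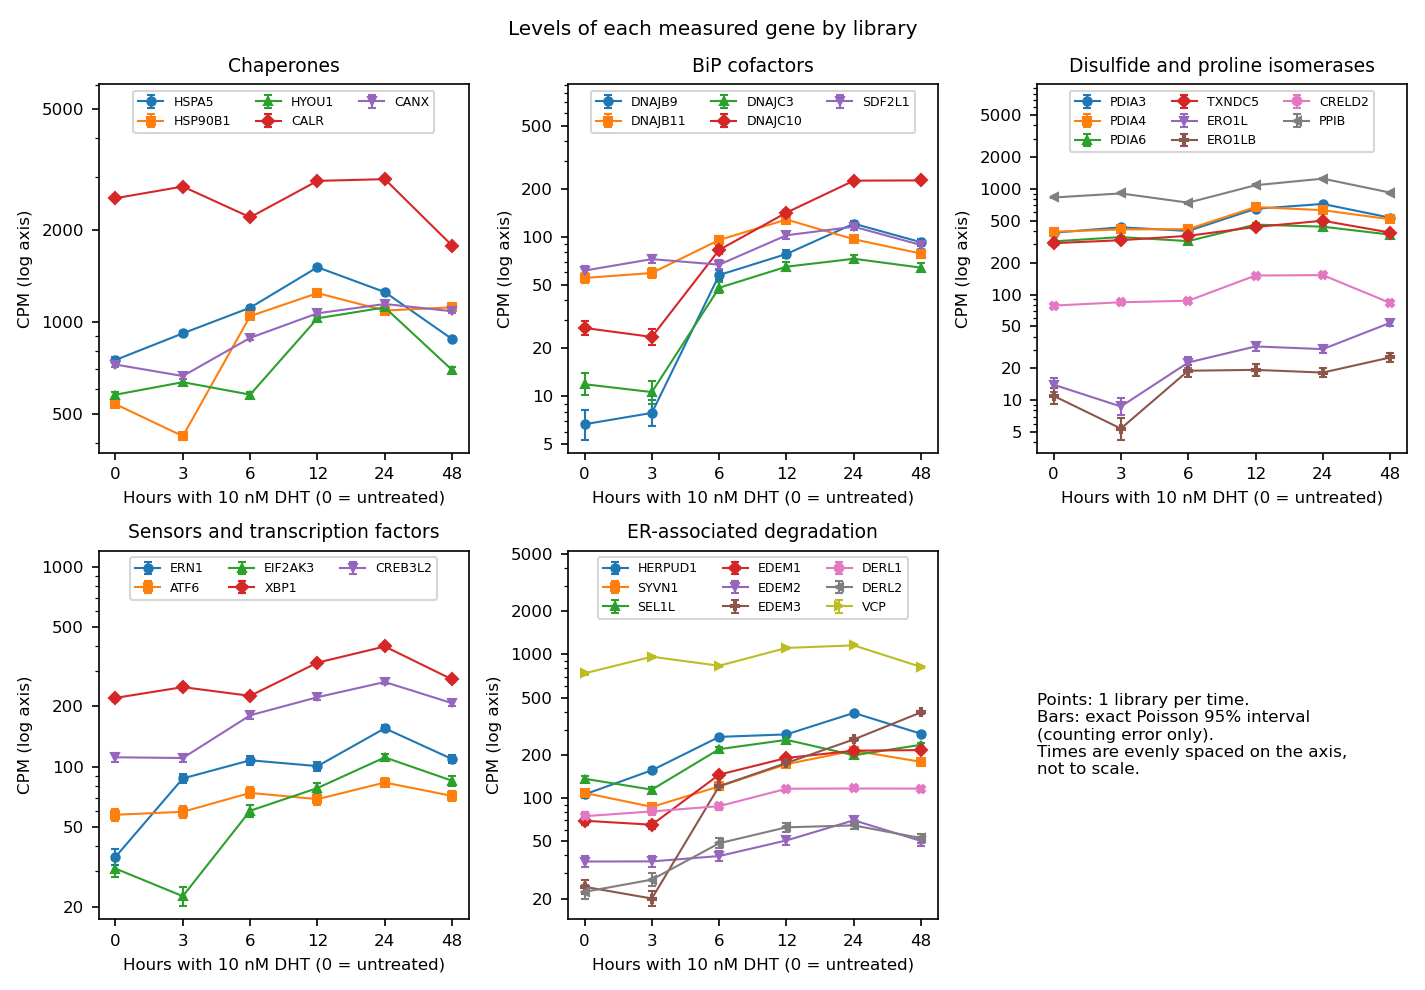
Level of each gene in CPM (vertical log axis) in the libraries from 0 h to 48 h (evenly spaced, not to scale), 1 panel per role; bars are exact Poisson 95% intervals and cover counting error only. DNAJB9, DNAJC3 and DNAJC10 separate from their 3 h levels at 6 h, whereas the chaperone panel is flatter and CALR ends at 1780.4 CPM.

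Of the cofactors of BiP, DNAJB9, DNAJC3 and DNAJC10 had large increases and DNAJB11 and SDF2L1 smaller ones. DNAJB9 (ERdj4) had 6.68, 7.86, 57.7, 78.2, 121 and 92.6 CPM. Its 0 h and 3 h levels were alike within counting error, and at 24 h it stood at 18.2 times the 0 h level (14.7 to 22.7). DNAJC3 (p58IPK), a cofactor that also binds and inhibits PERK, had 11.9, 10.6, 48.0, 65.1, 73.0 and 64.2 CPM, and was 6.13-fold higher at 24 h (5.20 to 7.27). DNAJC10 (ERdj5), which joins a J domain to disulfide reductase activity, had 26.9, 23.6, 83.0, 142, 226 and 227 CPM. It was 8.41-fold higher at 24 h (7.54 to 9.39), and its 24 h and 48 h levels did not differ beyond counting error.

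DNAJB11 (ERdj3), a secreted and lumenal cofactor, had 55.3, 59.4, 95.8, 129, 96.8 and 78.6 CPM. It was called higher at 12 h (2.33, 2.13 to 2.54) and was 1.75 times its 0 h level at 24 h (1.61 to 1.91). SDF2L1, which works in a complex with ERdj3, had 61.5, 72.6, 67.0, 103, 116 and 89.0 CPM, with a ratio of 1.89 at 24 h (1.74 to 2.04). The transcripts of the first 3 hold 37.4 to 40.4% GC, that of DNAJB11 46.5% and that of SDF2L1 65.5%. With the GC trend removed SDF2L1 had changes of 1.21, 1.58 and 1.04 at 12, 24 and 48 h, beside 1.60, 1.94 and 1.52 for DNAJC3. Called higher at 24 h were 3 of the 5 cofactors (background 10.5%), with a median change of 2.52. In the GENCODE v29 annotation, exons of DNAJB9 overlap those of PNPLA8 and THAP5 on the other strand, and whether counting used strand is not given in the sources used here. PNPLA8 had 129, 112, 673, 591, 1074 and 980 counts and THAP5 29, 25, 168, 187, 242 and 225 counts from 0 h to 48 h, beside 88, 111, 774, 1066, 2496 and 1394 for DNAJB9. These rows rose at the same step, so the share of DNAJB9 reads is uncertain, and the overlap's part in the change was not tested.

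The disulfide and proline isomerases stood on a plateau at 12 and 24 h, and 1 of the 8 genes, ERO1L, was called higher at 24 h (12.5%, near the background of 10.5%). PDIA3 (ERp57), which acts on glycoproteins held by calnexin and calreticulin, had 385, 434, 401, 649, 722 and 535 CPM, and a ratio of 1.87 at 24 h (1.81 to 1.93). PDIA4 (ERp72) had 393, 415, 417, 675, 630.2 and 517 CPM, and PDIA6 (P5), which also attenuates IRE1, had 319, 351, 321, 460.1, 439.6 and 369.7 CPM. Both were highest at 12 h, with 24 h ratios of 1.60 (1.55 to 1.66) and 1.38 (1.33 to 1.43). TXNDC5 (ERp46) had 307, 327, 360.2, 437, 501 and 386 CPM and a 24 h ratio of 1.63 (1.57 to 1.69).

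CRELD2, an ER stress-inducible protein with disulfide isomerase activity, had 78.7, 84.6, 87.5, 152, 153 and 83.4 CPM. The 12 h and 24 h libraries stood apart at 1.93 (1.79 to 2.08) and 1.94 times (1.81 to 2.09) the 0 h level, and the interval at 48 h included no change (1.06, 0.976 to 1.15). PPIB, the lumenal prolyl isomerase cyclophilin B, had 831, 908, 742, 1086, 1253 and 925 CPM and a 24 h ratio of 1.51 (1.47 to 1.54). Exons of PPIB overlap SNX22 on the other strand, whose row had 14189 counts at 24 h and 6069 at 0 h, so both are uncertain, likewise TXNDC5, which shares exons with the read-through gene BLOC1S5-TXNDC5, and PDIA3, which has 2 annotated pseudogenes. Exons of CRELD2, PDIA6, PDIA3 and the cofactor DNAJB11 likewise overlap those of ALG12, ATP6V1C2, ELL3 and TBCCD1 on the other strand. The RNA of the 8 isomerase and oxidase genes had a median change of 0.69 at 24 h.

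ERO1L and ERO1LB, the oxidases that pass electrons from disulfide isomerases to oxygen, were lower at 3 h than at 0 h. ERO1L had 14, 8.72, 22.7, 32.3, 30.5 and 54.0 CPM. Its 3 h level was 0.621 times that at 0 h (0.490 to 0.784) and its 48 h level 3.85 times (3.28 to 4.54). ERO1LB had 11, 5.39, 19.0, 19.4, 18.3 and 25.4 CPM, with ratios of 0.489 at 3 h (0.366 to 0.650) and 2.31 at 48 h (1.90 to 2.81). Both were lowest at 3 h and highest at 48 h, like EDEM3, EDEM1 and DNAJC10, and with a pseudocount of 0.1 CPM in place of 1 ERO1LB was called lower at 3 h. Their transcripts are among the poorest in GC of the 31 with a known value, with 38.7% and 37.0%, and removing the GC trend left changes of 0.90 and -0.058 at 48 h, neither past 2-fold.

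Of the 3 stress sensors ERN1 and EIF2AK3 were called higher, ERN1 first, and ATF6 was not. ERN1 had 35.4, 87.4, 108, 101, 156 and 109 CPM. The 3 h library was already apart from 0 h (2.47, 2.21 to 2.75), levels from 3 h to 12 h lay within 1.5-fold of each other, and the 24 h library was the highest (4.39, 3.98 to 4.85). EIF2AK3, which encodes PERK, had 31.0, 22.5, 60.3, 78.2, 111 and 85.1 CPM, with a ratio of 0.728 at 3 h (0.627 to 0.845) and 3.60 at 24 h (3.24 to 4.01). ATF6 had 57.5, 59.5, 74.0, 68.8, 83.3 and 71.4 CPM; it stayed within 1.5-fold of 0 h throughout, at 1.45 at 24 h (1.33 to 1.58), where its change was 0.081 with the GC trend removed. The sensors are controlled mainly as proteins, so a level of RNA does not show activity.

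XBP1, whose messenger is the splicing substrate of IRE1, had 221, 249.9, 226, 331, 399 and 273 CPM and a 24 h ratio of 1.81 (1.73 to 1.89). Counts per gene do not tell its spliced from its unspliced form. CREB3L2, a membrane-bound factor related to ATF6 that acts on secretory capacity, had 111, 111, 181, 223, 265 and 208 CPM. It was 2.38-fold higher at 24 h (2.24 to 2.52). Of the 30 genes with a window it alone held the letters AGAACA, the hexamer of the androgen response element. They were in 1 of its 2 windows, that at chr7:137932939-137933238, and 17.5% of all genes with a window hold them. At 24 h 3 of the 5 sensors and factors were called higher (background 10.5%), with a median change of 1.24.

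In ER-associated degradation 4 of 9 genes were called higher at 24 h (background 10.5%), and the median change was 0.97. EDEM3, a mannosidase that trims glycans of misfolded proteins, had 24.2, 20.1, 121, 176, 256 and 396 CPM. It was higher in each library from 6 h on than in the one before, and reached 10.6 times the 0 h level at 24 h (9.46 to 11.9) and 16.4 times at 48 h (14.6 to 18.4). EDEM1, which delivers such proteins to the ligase complex, had 69.7, 65.4, 146, 191, 214 and 216 CPM and a 24 h ratio of 3.07 (2.86 to 3.30). EDEM2, which makes the first mannose cut, had 36.3, 36.3, 39.6, 50.9, 70.2 and 50.4 CPM, with 1.94 at 24 h (1.75 to 2.15). The 3 EDEM genes thus differed in size of increase and in the last step, where EDEM3 alone of them went on climbing beyond counting error.

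HERPUD1, a ubiquitin-like membrane protein that organises the ligase complex, had 106, 156, 267, 278, 392 and 281 CPM. It was the gene nearest to ERN1 at 3 h, at 1.47 times the 0 h level (1.38 to 1.58), and was 3.69-fold higher at 24 h (3.49 to 3.91). DERL2, a derlin of the export channel, had 22.3, 27.1, 48.6, 62.7, 64.7 and 52.8 CPM, with 2.90 at 24 h (2.55 to 3.30). Its exons overlap MIS12 on the other strand, whose row had 354, 357, 761, 750, 1102 and 673 counts, so its reads are uncertain too. Its paralog DERL1 had 75.0, 80.9, 88.1, 116, 117 and 117 CPM, with 1.56 (1.45 to 1.68) and no difference beyond counting error between the 3 last libraries.

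The ligase SYVN1 (HRD1) had 109, 87.1, 121, 173, 214 and 179 CPM, with 1.97 at 24 h (1.86 to 2.09); exons of SYVN1 overlap FAU on the same strand, so its reads are uncertain. SEL1L, the adaptor that holds SYVN1 in its complex, had 137, 115, 219, 255, 199 and 235 CPM, highest at 12 h (1.86, 1.76 to 1.97). The ligase and its adaptor parted at 24 h, when the first was at its highest and the second lower than at 6, 12 and 48 h. With the GC trend removed SEL1L had changes of -0.28, 0.097, -0.076 and -0.10 at 6, 12, 24 and 48 h. On that scale its 24 h value was lower than that at 12 h, but not lower than those at 6 h and 48 h. VCP (p97), the ATPase that pulls substrates out, had 739, 965, 835, 1111, 1157 and 819 CPM and 1.56 at 24 h (1.53 to 1.60). Its 3 h level of 1.31 times that at 0 h (1.27 to 1.34) came next after that of HERPUD1 at that time.

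**Figure D3:**
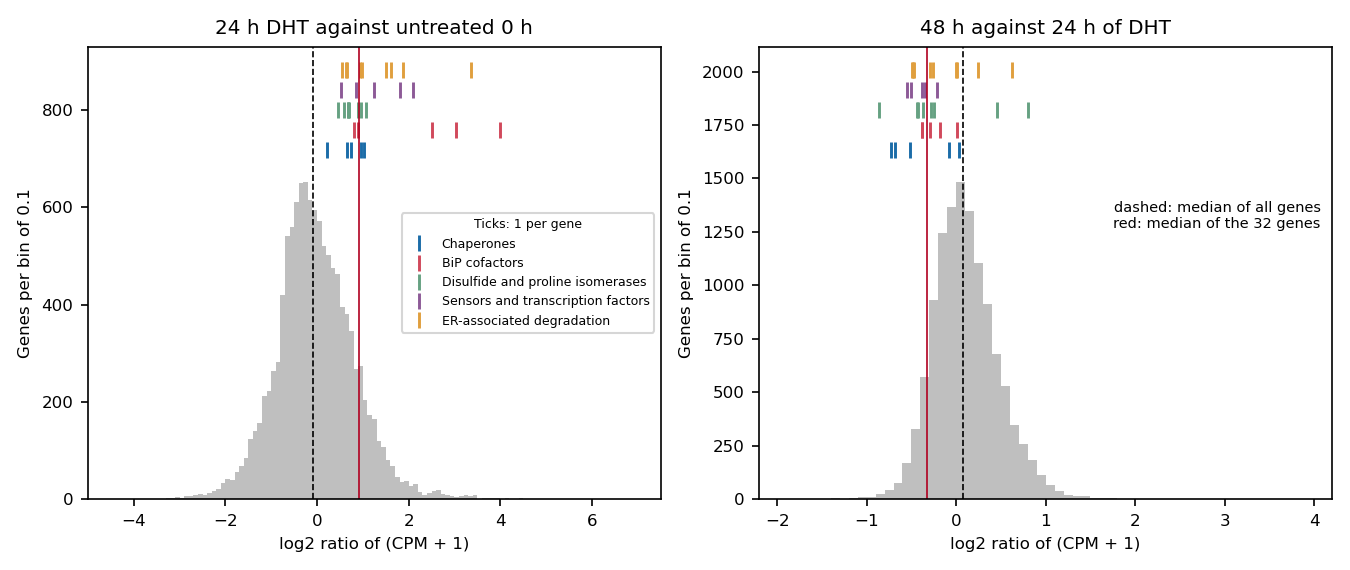
Number of all tested genes (grey, bins of 0.1) by log2 ratio of (CPM + 1), at 24 h against 0 h on the left and at 48 h against 24 h on the right; coloured ticks are the 32 genes by role, and lines mark the medians of all tested genes (dashed) and of the 32 (red). The median of the 32 lies at 0.92 against -0.085 on the left, and at -0.32 against 0.0796 on the right.

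The level of most of these genes peaked at 24 h. The highest of the 6 libraries was that at 24 h for 21 of 32 genes, against 7.34% of tested genes outside the regions left out; it was the 12 h library for 6 genes (background 11.6%) and the 48 h library for 5 (background 15.3%). For 5 genes (DNAJC10, CRELD2, EDEM1, DERL1 and DERL2) the 2 highest libraries did not differ beyond counting error. The lowest library was that at 0 h for 18 genes and that at 3 h for 12. The share over all tested genes was not computed for the lowest library. At 3 h 7218 of 11916 tested genes were below 0 h.

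From 24 h to 48 h the genes parted. Below their 24 h level at 48 h were 25 of 32 genes, against 40.1% of all tested genes, and the median ratio was -0.32 on the log2 scale, against 0.0796. Past 1.5-fold below their 24 h level were 3 of 32 genes (background 1.59%): CRELD2 at 0.545 (0.510 to 0.582), CALR at 0.605 (0.597 to 0.614) and HYOU1 at 0.623 (0.609 to 0.638). XBP1 followed at 0.684 (0.659 to 0.711), with HSPA5 at 0.701 (0.686 to 0.716) and ERN1 at 0.702 (0.661 to 0.745). At least 1.5-fold higher at 48 h were 2 genes (background 9.67%), ERO1L at 1.77 (1.60 to 1.97) and EDEM3 at 1.54 (1.49 to 1.60). At 2-fold the step called 0 genes higher (background 1.53%) and 0 lower (background 0.185%). With the GC trend removed 3 of 31 genes were above their 24 h level at 48 h, where 5406 of 11139 tested genes were. They were ERO1L (0.51) and EDEM3 (0.32), then no longer past 1.5-fold, and ERO1LB (0.067). SEL1L (-0.017) and HSP90B1 (-0.085) were then below their 24 h level. The comparison of these times was chosen after the levels were seen.

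**Figure D4:**
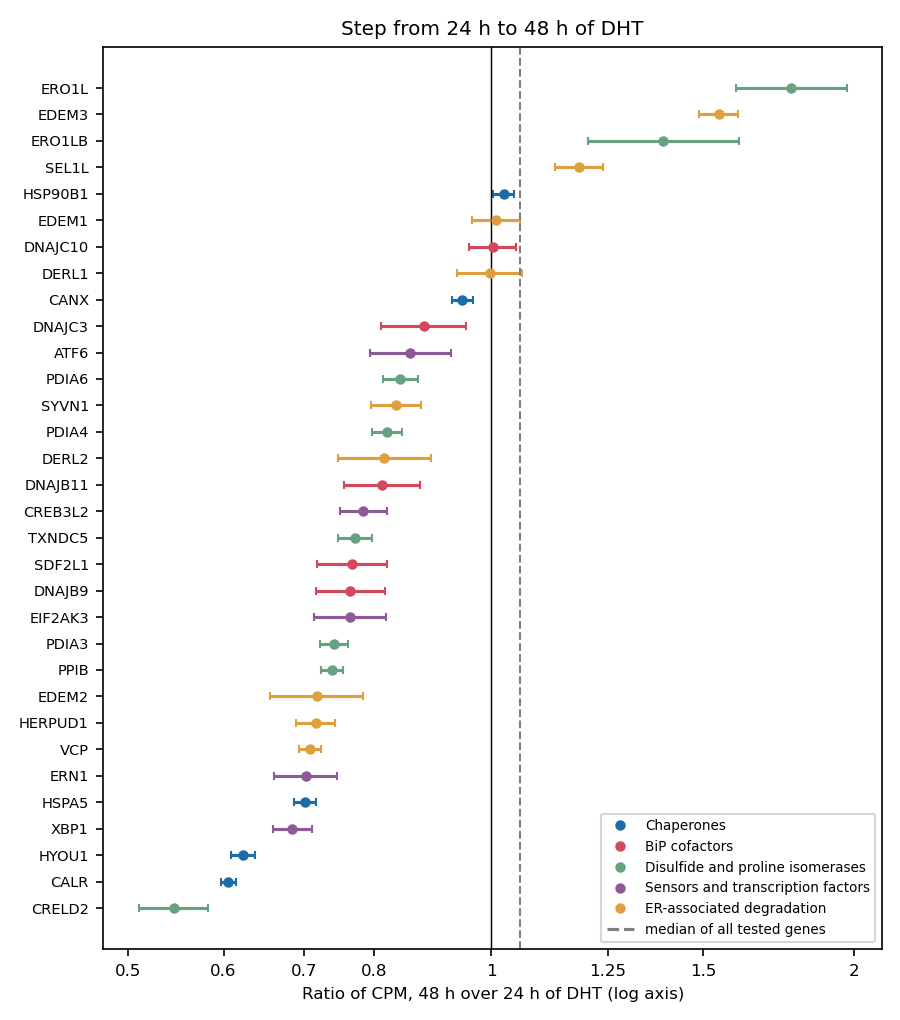
Ratio of CPM at 48 h over 24 h of DHT (horizontal log axis) for each of the 32 genes, coloured by role, with exact conditional 95% intervals that cover counting error only; the dashed line is the median ratio of all tested genes. ERO1L (1.77), EDEM3 (1.54), ERO1LB (1.39), SEL1L (1.18) and HSP90B1 (1.02) lie above 1 beyond their intervals, EDEM1 and DNAJC10 lie above it within theirs, and CRELD2 (0.545) lies lowest.

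Removing the GC trend moved the calls in both directions. The 31 transcripts with a known value had a median of 46.0% GC, against 49.5% over all tested genes, and their change at 24 h had a Pearson's r of -0.381 with GC content as a description. With the trend of all genes removed, 15 of 31 genes were called higher at 24 h (background 7.09%) and 0 lower (background 6.58%). At 48 h 10 of 31 were higher (background 7.16%) and 0 lower (background 4.82%), at 12 h 10 higher (background 4.15%) and 0 lower (background 3.01%), and at 3 h 1 higher (background 0.943%) and 0 lower (background 0.431%). At 6 h, where the trend was steepest, 5 of 31 were higher (background 3.8%) and 0 lower (background 1.56%): DNAJB9, DNAJC3, ERN1, HERPUD1 and EDEM3. At 24 h HYOU1 with 1.31, SDF2L1 with 1.58, CRELD2 with 1.46, SYVN1 with 1.45, EDEM2 with 1.27 and PPIB with 1.06 passed 2-fold only with the trend removed. HSP90B1 with 0.67, DERL2 with 0.88 and ERO1L with 0.40 no longer did. At 48 h HSP90B1 (0.59), DERL2 (0.33), ERO1L and ERO1LB dropped out in the same way, and SDF2L1 (1.04) and SYVN1 (1.16) came in. DNAJB9 (3.47), EDEM3 (2.68), ERN1 (2.28), DNAJC10 (2.27), DNAJC3 (1.94), HERPUD1 (1.93), EIF2AK3 (1.64), EDEM1 (1.49) and CREB3L2 (1.30) were past 2-fold on both scales.

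**Figure D5:**
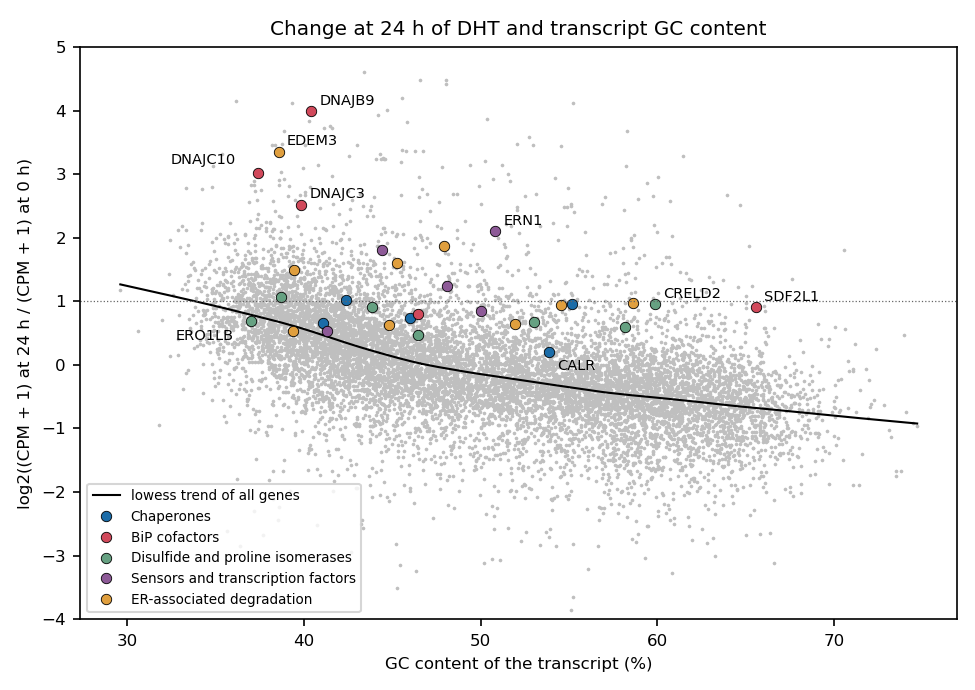
Change at 24 h, as log2((CPM + 1) at 24 h / (CPM + 1) at 0 h), against GC content of the transcript in percent; grey points are tested genes, coloured points the 31 genes with a known value, the line is the lowess trend of all genes and the dotted line marks 2-fold. DNAJB9 (3.99), EDEM3 (3.35) and DNAJC10 (3.03) lie far above the trend at low GC, and SDF2L1 (0.90) lies above it at high GC.

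Set beside the promoter letters, the genes with an ERSE were not those with the largest increases. The 8 genes with one (HSPA5, HSP90B1, CALR, CANX, PDIA6, ERO1LB, CRELD2 and XBP1) had changes of 0.21 to 1.02 at 24 h, with a median of 0.71, and the 22 with a window and no ERSE had a median of 1.02. Of the 3 genes with ERSE-II, HERPUD1 had 1.87, HYOU1 0.95 and SDF2L1 0.90. The UPRE core TGACGTGG, a site read by XBP1 and ATF6, was in the windows of HYOU1, where it overlaps an ERSE-II, DNAJC10, TXNDC5 and VCP (13.3% of 30, against 0.927% of all genes). The site of CRELD2 also lies in the window of ALG12, a mannosyltransferase gene read the other way, whose change at 24 h was -0.023 where that of CRELD2 was 0.95. Exons of CRELD2 and ALG12 overlap on opposite strands, so both rows are uncertain. The palindrome of the androgen response element (AGAACA, 3 bases of any kind, TGTTCT) was in 0 of the 30 genes' windows and in 0.00366% of all. A match of letters is no evidence of binding, and sites further away were not searched.

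The rest of the pathway was less uniform. Of 33 other ER folding genes 9 were higher at 24 h (background 10.5%) and 2 lower (background 10.8%), with a median of 0.44. The Hsp70 of the microsomes HSPA13 (STCH in the table) had a change of 3.12, the chaperone CLGN, a homolog of calnexin, 2.60, the thiol-retention protein ERP44 1.49 and the isomerase PDIA5 1.41. The oxidase QSOX1 had -1.38 and the prolyl isomerase FKBP9 -1.34. Of 27 other degradation genes 7 were higher (background 10.5%) and 0 lower (background 10.8%), with a median of 0.34: the ubiquitin-conjugating enzyme UBE2J1 had 2.67, the deubiquitinase YOD1 2.26, the selenoprotein SELS 2.01 and the J-domain protein DNAJB14 1.89. With the GC trend removed 7 folding genes were higher (background 7.09%) and 3 lower (background 6.58%), and 5 degradation genes were higher. ERP44 (0.83) and DNAJB14 (0.86) were then not past 2-fold.

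Of 20 other stress sensing genes 5 were higher at 24 h (background 10.5%) and 0 lower (background 10.8%), with a median of 0.53. CREB3L4, a membrane-bound factor abundant in prostate, had 90.9, 91.8, 122, 322, 417 and 228 CPM and a change of 2.18 at 24 h. SERP1, a stress-associated protein of the translocon, had 1.99, the glutathione-degrading enzyme CHAC1 1.73, and PPP1R15B, the constitutive partner of the eIF2alpha phosphatase, 1.41. The next genes, which act downstream of PERK, were singled out after their values were seen. DDIT3 (CHOP) had 37.6, 24.8, 35.5, 28.6, 37.9 and 45.9 CPM, and PPP1R15A (GADD34) had 7.13, 9.14, 7.38, 9.17, 7.04 and 7.18 CPM. ATF4 had 265, 284, 227, 218, 418 and 241 CPM, and TRIB3 had 92.3, 69.9, 54.4, 54.3, 124 and 137 CPM. Before the GC trend was removed these 4 were within 2-fold of 0 h at every time. CHAC1, also downstream of PERK, was not at 24 h, nor was STC2, a secreted stress-induced glycoprotein, at 12 h (-1.17). With the GC trend removed ATF4 was past 2-fold at 24 h (1.07). TRIB3 had 0.96, PPP1R15A 0.47 and DDIT3 0.18 there, and CHAC1 had no known GC value.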

How the data were processed

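Total RNA of 6 LNCaP libraries was sequenced on an Illumina GAIIx, per the labels' protocols. The table as deposited holds, per the file headers, a tag count and an RPM value (headed ppm) for each transcript and library. The authors' RPM is the count over a fixed denominator, of which the listed transcripts made 86.9 to 89.5%. Build hg19 comes from the submitters' processing notes; for the aligner, the counter and the handling of strand, no statement is given in the sources used here. Of 18051 lines 50 exact repeats were dropped, and counts of transcripts with 1 symbol were summed to 17990 genes. Genes with a mean count of at least 20 (11916) entered. The scale was CPM over listed transcripts with a pseudocount of 1 CPM; intervals are exact Poisson (levels) and exact conditional binomial (ratios), at 95%. PCR reads without molecular identifiers are not independent molecules. GC content came from GENCODE v29 transcripts (93.5% of tested genes); its trend was a lowess curve with span 0.3. Promoter windows and start sites are RefSeq's on GRCh38.p14, and table coordinates on hg19 were not used. Scripts, checked on simulated data, used Python 3.11.15, numpy 2.4.6, scipy 1.17.1, statsmodels 0.14.6 and edgeR 4.0.16 (TMM factors only). The genes, the other lists, the rule naming up to 4 genes per list by change at 24 h, and the alternatives were chosen with earlier results of these data known. Each library's group and time were taken from its title. Alternatives were other scalings, pseudocounts, no count filter, the GC trend removed, and rules of 1.5- and 3-fold. Protein sequences were not used here. One marker gene of the plan is not reported here.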

Additional observations from a re-analysis of the deposited data

How the results depend on the processing

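Of the changes called at 24 h and 48 h, 1 turned its direction under an alternative: ERO1LB at 48 h had -0.058 with the GC trend removed, against 1.14, and the cause was not tested. Removing that trend also took below 0 some genes that were within 2-fold of 0 h: SEL1L and ERO1LB at 24 h (29 of 31 above 0 h), and SEL1L, CANX and ATF6 at 48 h. Counts at 24 h depended on the scale, since 7 genes had ratios of 1.81 to 1.97 (XBP1, PDIA3, SDF2L1, HYOU1, EDEM2, CRELD2 and SYVN1). Median of ratios scaling moved the median of all tested genes at 24 h by 0.14 on the log2 scale; with it 19 genes were called higher at 24 h, their median was 1.07, and 6 were past 1.5-fold below their 24 h level at 48 h. TMM gave 18 at 24 h. Of the 11916 tested genes 1646 were higher at 24 h with median of ratios and 1510 with TMM, against 1249 on the main scale. For counts below that have no share given above, the share over all tested genes is not given here. A pseudocount of 0.1 CPM made 1 gene lower at 3 h. With the GC trend removed 5 genes were higher at 6 h and the median there was 0.27. A 1.5-fold rule gave 2 genes lower at 3 h and 15, 24 and 28 higher at 6, 12 and 24 h; a 3-fold rule gave 0, 4, 4 and 7 higher at 3, 6, 12 and 48 h and 4 at all of 12, 24 and 48 h, fewer by construction. The GC trend removed together with a 1.5-fold rule, added after seeing the data like the comparison of 48 h with 24 h, gave 2, 21 and 23 at 3, 12 and 24 h. The authors' denominator, totals without chromosome 4 and distal chromosome 15, no count filter and a pseudocount of 5 CPM left these counts within 1.5 times. No paired analysis was possible because each group has 1 library, and for the same reason no library could be left out. Counting error limits ERO1L, ERO1LB, DNAJB9 and DNAJC3 most, with 76 to 185 counts at 0 or 3 h.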

Other observations

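Besides the genes described above, 8 tested genes outside the list had the ERSE letters in a promoter window. Of these, 3 were at least 2-fold higher at 24 h than at 0 h (background 10.5%). FICD, the enzyme that attaches AMP to BiP and removes it, had a change of 2.93 on the log2 scale at 24 h and 2.11 at 48 h. SERP1 had 1.99 and 1.96, and TRIM5, an antiviral restriction factor, had 1.77 and 1.56. SYNPO, an actin-binding protein, had -2.40 at 24 h. The other 4 (ALG12, EIF2A, TMEM120A and ZNF17) had -0.023 to 0.56. The site of SERP1 lies also in the window of EIF2A, whose change at 24 h was 0.38. Of the 10 tested genes outside the list with ERSE-II letters, 0 were at least 2-fold higher at 24 h (background 10.5%). Their changes ran from -0.67 to 0.51. Both sets are small, and a difference between the motifs was not tested.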
